A study of Oncorhynchus mykiss with 48 samples.

Results

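The comparison is between the livers of 4 BPA40 fish and 4 Control fish of the F1 generation at 365 days post-fertilization (dpf), which are 8 of the 48 rainbow trout sequenced. They were chosen by their treatment label (40 ng of BPA, or Control), and genes that the authors' software marked as too abundant to process (HIDATA) in any fish of this time point were dropped. BPA40 fish of the F1 generation grew from eggs that held 40 ng of bisphenol A (BPA) each after incubation at 30 mg/l in ovarian fluid for 3 h. The eggs of F1 Control fish were incubated with the ethanol vehicle alone and held 0 ng. Both groups came from pooled eggs of the same females fertilized with untreated milt, and embryos and fish of both were kept in clean water after fertilization. Another 4 fish of this time point (BPA4, 4 ng per egg after 3 mg/l) entered the statistical fit. The study also sampled F1 fish at 140 dpf and F2 fish at 112 and 365 dpf, with 4 fish in each of 12 groups. The titles of the F2 samples of 112 dpf give 140 dpf, whereas their descriptions and the paper give 112 dpf. F2 fish were the offspring of F1 females of each treatment and untreated males. Per the paper, BPA was not detected in the eggs of these females. For F2 fish, BPA40 therefore names the lineage and not a dose in their own eggs. The title of each F1 BPA40 sample and the paper give the incubation as 30 mg/l, whereas the sample descriptions give 3 mg/l. F1 fish were reared in 3 tanks per treatment, but the labels give no tank for a fish. The p-values therefore measure the spread between these fish, and a tank difference was not tested.

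BPA is a monomer of polycarbonate plastics and epoxy resins and a weak ligand of oestrogen receptors. The liver of an egg-laying fish is a target of oestrogens, which induce the yolk precursor vitellogenin there, and it is the main site of lipid synthesis and of the production of plasma proteins. In a BPA-laden egg the embryo is exposed during development only, so that the liver at 365 dpf is studied long after the exposure. The deposited files hold gene identifiers without gene names, and the available reference table contained 0 of them, so that genes are given by identifier and the liver label was not checked against marker genes.

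The libraries of the 2 groups overlapped in depth and complexity, measured after genes with the HIDATA mark were dropped. BPA40 fish had 13736825 to 18432866 fragments assigned to genes and Control fish 12758142 to 16642702, a difference of the means of 2094103 fragments (exact two-sided permutation p = 0.2, adjusted p over 5 measures = 0.643). At least 5 fragments were found for 26983 ± 943 genes per fish in BPA40 and for 26313 ± 1055 in Control (SD, n = 4, exact permutation p = 0.257, adjusted p = 0.643). The 100 genes with most fragments took 38.4 ± 2.9% of the fragments in BPA40 and 40 ± 1.8% in Control (SD, n = 4, exact permutation p = 0.429, adjusted p = 0.714). The smallest p that 4 against 4 fish allow is 0.0286, so that these tests do not show that the groups were alike. The expression profiles of the 2 groups were intermixed. CPM are fragment counts scaled to a common library total, with the total of each fish first multiplied by its TMM scaling factor. Over the 24243 genes tested, Pearson's r between the log2 CPM of 2 fish had a median of 0.931 within BPA40 (6 pairs, range 0.91 to 0.954). The median r was 0.934 within Control (6 pairs, 0.901 to 0.952) and 0.931 between the groups (16 pairs, 0.894 to 0.954). These values are across genes, which are not independent replicates. The median SD of a gene's log2 CPM between fish of a group was 0.37 in both BPA40 and Control. On 1 measure of the profiles, 1 fish of each group stood apart. On the first axis of the deviations from the treatment means, which held 26% of the spread within treatments, BPA40 replicate 3 lay at -0.40, against 0.10 to 0.16 for the other BPA40 fish. Control replicate 2 lay at -0.57, against -0.06 to 0.35 for the other Control fish. BPA40 replicate 3 also had the fewest genes detected of its group (25644, against 26999 to 27658) and the lowest TMM scaling factor (0.896, against 1.04 to 1.16). It had the fewest fragments as well (13736825, against 16426497 to 18432866), and the part of depth in this was not tested. By the median size of the deviations from the group mean, BPA40 replicate 2 lay farther out (0.295 log2 CPM, against 0.263 for replicate 3).

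BPA40 was compared with Control on the fragment counts by edgeR (quasi-likelihood test, TMM scaling), in 1 fit over the 12 fish of the time point. Of 24243 genes tested, 0 (0%) differed between BPA40 and Control at an adjusted p under 0.05, and the smallest Benjamini-Hochberg adjusted p was 0.482. At an unadjusted p under 0.05 were 1841 genes (7.59%). Of these, 980 (4.04% of the genes tested) were higher in BPA40, with a median log2 fold change of 0.73, and 861 (3.55%) were lower, with a median of -0.76. Without TMM, 1026 were higher and 646 lower. Over all genes tested the median log2 fold change was 0.0038, and the middle 90% of genes lay between -0.72 and 0.73. The DESeq2 Wald test on the same fish and genes called 30 genes (0.124%), 21 higher and 9 lower in BPA40, and limma-trend on log2(FPKM + 1) called 1 gene, which was lower. The call for these genes thus depended on the test. All 30 genes that DESeq2 called had an unadjusted edgeR p of 0.00293 or less. In 29 of them the 4 BPA40 fish did not overlap the 4 Control fish, against 4.28% of all genes tested. These values come from the same counts of the same fish that chose the genes, and are no separate evidence. The number of genes at unadjusted p under 0.05 depended on single fish. Leaving out BPA40 replicate 3 gave 2645 genes, leaving out Control replicate 3 gave 1179, and without BPA40 replicate 3 more genes were lower (1493) than higher (1152) in BPA40. With Control replicate 2, BPA4 replicate 3 and BPA40 replicate 3 all left out, a choice made after seeing the data, it was 2820, and 0 genes passed the adjustment.

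**Figure D1:**
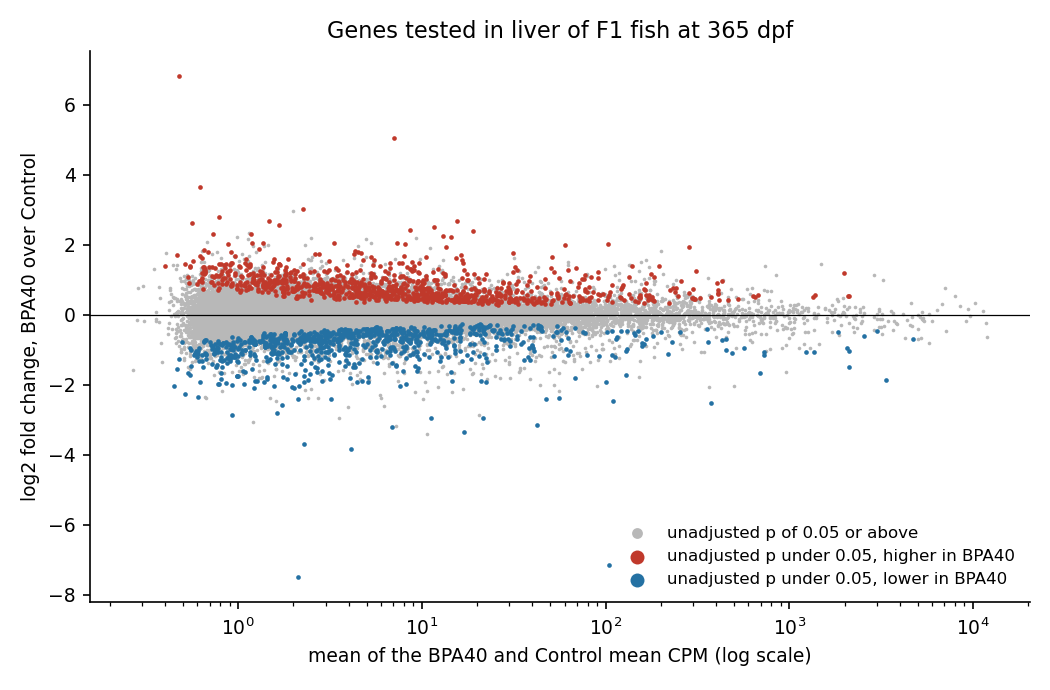
Log2 fold change of BPA40 over Control in F1 livers at 365 dpf (vertical axis) against the mean of the group mean CPM (horizontal axis, log scale), with 1 point for each of 24243 genes. Coloured points are the 980 genes higher and the 861 genes lower in BPA40 at unadjusted p under 0.05, none of which passed the adjustment.

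**Figure D2:**
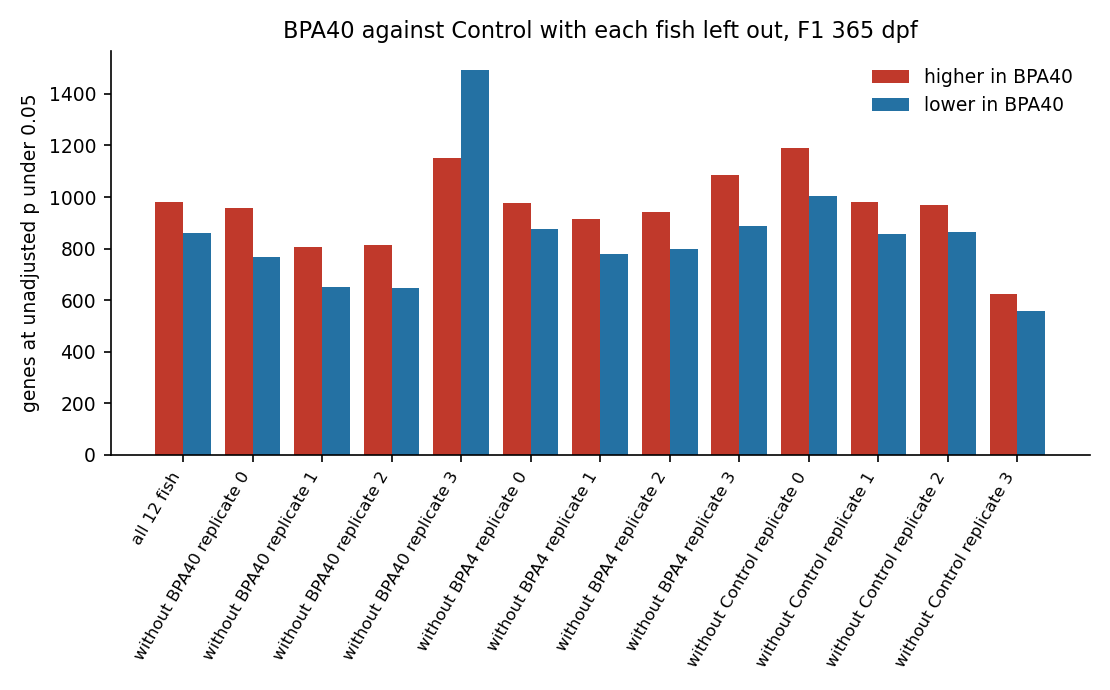
Number of genes at unadjusted p under 0.05 that were higher or lower in BPA40 than in Control (vertical axis), in the fit of all 12 fish and with each fish left out (horizontal axis). The count was largest without BPA40 replicate 3 (2645) and smallest without Control replicate 3 (1179), and 0 genes passed the adjustment in each of these fits.

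The precision of the comparison depended on the level of the gene. The standard error of a log2 fold change had a median of 0.29. For 14250 genes (58.8%) the 95% interval lay between -1 and 1, so that for these genes a doubling or a halving lies outside the interval, while the interval of 9993 genes reached beyond these bounds. The genes were divided by level into 5 classes of equal size. In the class with the lowest level (median 0.933 CPM) the median standard error was 0.42, and 22.7% of the intervals lay within these bounds. In the class with the highest level (median 41.4 CPM) the median standard error was 0.21, and 76.8% did. The share of genes higher in BPA40 at unadjusted p under 0.05 was 3.11% in the lowest class and 5.05% in the highest. The share of genes lower in BPA40 was 3.36% and 3.07%. The 100 genes with most fragments held 39.8% of the fragments of the genes tested. Among these 100 genes, 3 were higher in BPA40 at unadjusted p under 0.05, where 4.04% of all genes tested were. Another 8 were lower, where 3.55% of all genes tested were. The groups did not overlap in 4 of the 100, against 4.28% of all genes tested. The log2 fold changes of the 100 genes ranged from -1.85 to 1.20 with a median of -0.06, and 66 of their intervals lay between -1 and 1. Of 14 genes dropped for the HIDATA mark, 11 carried it in BPA40 and 10 in Control, where their counts are listed at 0. The mark was absent from both groups for 3 of them, which had 151784 to 324637 fragments per fish in BPA40 and 103206 to 296676 in Control, and their ranges overlapped gene by gene.

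The separation of the groups was also counted gene by gene, with no test. In 1038 of the 24243 genes (4.28%) the CPM of the 4 BPA40 fish lay entirely above (613 genes) or entirely below (425 genes) that of the 4 Control fish. Of these, 743 were also at unadjusted p under 0.05, and 295 were not. The other 1098 genes at unadjusted p under 0.05 had overlapping groups. Among the 20 genes with the smallest p, 12 were higher and 8 lower in BPA40, the groups overlapped in none, and the size of the log2 fold change ranged from 0.75 to 2.80. Among the 100 genes with the smallest p, 63 were higher, and the groups did not overlap in 91. The same values chose these genes, so that the lack of overlap in both sets is no separate evidence. The most extreme fitted fold changes rested on few fish. The gene with the highest one had 34, 0, 0 and 25 fragments in BPA40 fish and 0 in each Control fish. The gene with the lowest one had 1, 0, 0 and 0 fragments in BPA40 fish, against 0, 96, 0 and 121 in Control fish. Before the filter on low counts, 22 genes had fragments in every BPA40 fish and none in any Control fish, and 11 genes had them in every Control fish and in no BPA40 fish. At most 4 and 6 fragments per fish were counted for them, 0 of these genes were tested, and such counts are too low for a fold change.

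The genes described in full are the 2 higher and the 2 lower in BPA40 with the smallest p. What these 4 genes encode is not given in the sources used here. GSONMT00042395001 had the smallest p of all genes. It had 0.156, 0.583, 0.740 and 0.0815 CPM in BPA40 fish, against 3.18, 3.33, 2.38 and 2.56 CPM in Control fish. These were 3, 10, 14 and 1 fragments in BPA40 fish, against 56, 47, 31 and 31 in Control fish. Each BPA40 fish was below each Control fish, and BPA40 replicates 0 and 3 were the lowest of all. The log2 fold change was -2.80 (SE 0.46, 95% interval -3.82 to -1.84, unadjusted p = 3.78e-05, edgeR adjusted p = 0.482). In BPA4 fish it had 1.82, 1.70, 1.54 and 1.12 CPM, which lay between the ranges of BPA40 and Control, and its log2 fold change of BPA4 over the same Control fish was -0.89 (SE 0.41, edgeR adjusted p = 0.829). This gene was the 1 called by limma-trend.

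GSONMT00022276001, the other of the lower genes, was expressed at a higher level. It had 48.5, 22.7, 29.8 and 26.8 CPM in BPA40 fish, against 68.6, 69.7, 80.4 and 70.2 CPM in Control fish. The groups did not overlap, and BPA40 replicate 0 was the nearest to the Control fish. The log2 fold change was -1.17 (SE 0.23, 95% interval -1.67 to -0.68, unadjusted p = 0.000202, edgeR adjusted p = 0.652). BPA4 fish had 59.9, 40.0, 42.7 and 54.3 CPM, all below the Control fish, and the log2 fold change of BPA4 over the same Control fish was -0.55 (SE 0.22, edgeR adjusted p = 0.829).

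GSONMT00039044001 was the higher gene with the smallest p. It had 19.3, 17.4, 11.4 and 9.94 CPM in BPA40 fish, against 2.84, 4.04, 3.00 and 0.907 CPM in Control fish. Each BPA40 fish was above each Control fish, and Control replicate 3 was the lowest of its group. The log2 fold change was 2.42 (SE 0.39, 95% interval 1.57 to 3.27, unadjusted p = 3.97e-05, edgeR adjusted p = 0.482). BPA4 fish had 1.53, 2.74, 3.48 and 2.17 CPM, within the range of the Control fish, with a log2 fold change of -0.13 (SE 0.40, edgeR adjusted p = 0.972).

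GSONMT00016350001 had 40.4, 46.0, 22.9 and 19.0 CPM in BPA40 fish, against 9.88, 7.38, 2.15 and 5.03 CPM in Control fish. Each BPA40 fish was again above each Control fish, and replicates 0 and 1 were the highest of both groups. The log2 fold change was 2.38 (SE 0.42, 95% interval 1.47 to 3.30, unadjusted p = 9.36e-05, edgeR adjusted p = 0.606). BPA4 fish had 7.99, 8.41, 6.69 and 4.41 CPM, within the range of the Control fish, with a log2 fold change of 0.16 (SE 0.41, edgeR adjusted p = 0.963). BPA4 and BPA40 were compared with the same Control fish, so that their fold changes are not independent. All 4 genes were among those called by DESeq2 (adjusted p from 1.59e-06 to 0.00629). In bulk liver, fewer cells of a type and less RNA per cell cannot be told apart for any of these genes.

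On the FPKM scale, which divides by the length that the authors' software used for a gene, the order of the levels differed from that on the CPM scale. These lengths were not checked. GSONMT00039044001 had 271, 240, 153 and 133 FPKM in BPA40 fish, against 37.4, 52.8, 39.5 and 12.3 FPKM in Control fish. GSONMT00016350001 had 516, 577, 281 and 232 FPKM in BPA40 fish, against 119, 88.1, 25.9 and 62.2 FPKM in Control fish, the highest level per length of the 4 genes in BPA40. GSONMT00022276001 had 72.0, 33.5, 43.2 and 39.4 FPKM in BPA40 fish, against 100, 101, 117 and 104 FPKM in Control fish. GSONMT00042395001 was below 1 FPKM in every fish of both groups, with a highest value of 0.215 FPKM in BPA40 fish and of 0.975 FPKM in Control fish. The groups did not overlap in any of the 4 genes on this scale either, which rests on the same fragments of the same fish and is no separate evidence.

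**Figure D3:**
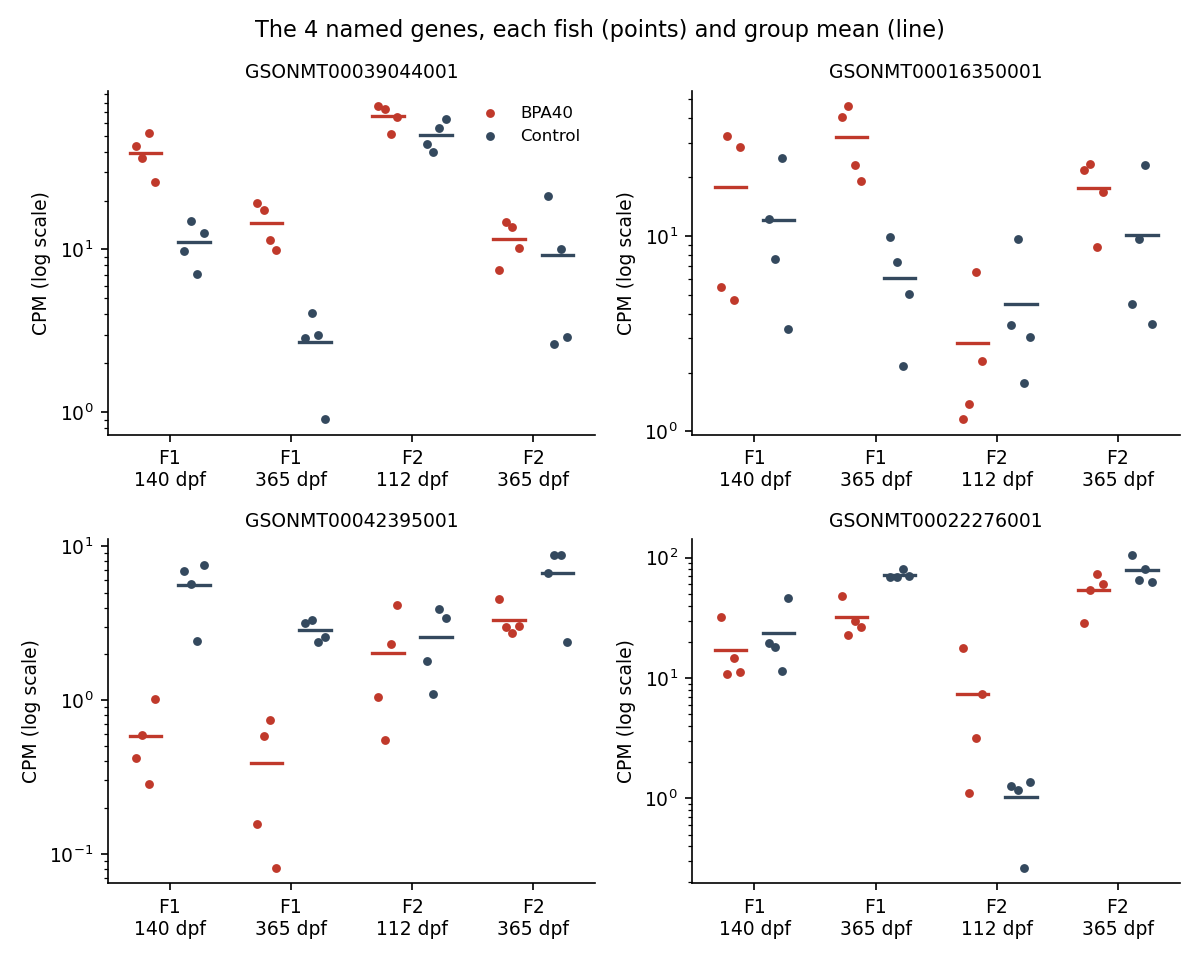
CPM (vertical axis, log scale) of the 4 named genes in each BPA40 and Control fish (points) with the group mean (line, n = 4), at the 4 time points (horizontal axis). The genes were chosen at F1 365 dpf, where the groups do not overlap. GSONMT00039044001 and GSONMT00042395001 also did not overlap at F1 140 dpf, where the share of all genes without overlap was not counted.

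The other time points hold other fish and their own Control fish, and were not used to choose these genes. The F1 fish of 140 and 365 dpf came from the same rearing experiment, with 3 tanks per treatment, and are not separate experiments. A tank difference shared by both ages was not tested. At F1 140 dpf, GSONMT00042395001 had 0.422, 0.594, 0.286 and 1.02 CPM in BPA40 fish, against 6.89, 5.73, 2.42 and 7.51 CPM in Control fish. Again each BPA40 fish was below each Control fish (log2 fold change -3.21, SE 0.48, edgeR adjusted p = 0.0728). BPA4 fish of F1 140 dpf had 3.26 to 8.73 CPM, with a log2 fold change of BPA4 over Control of -0.11 (SE 0.40, edgeR adjusted p = 0.988). In the F2 fish the log2 fold change of BPA40 over Control was -0.31 (SE 0.59, edgeR adjusted p = 0.952) at 112 dpf and -0.99 (SE 0.37, edgeR adjusted p = 0.317) at 365 dpf. The BPA40 and Control groups overlapped at both ages. GSONMT00039044001 had 43.4, 36.3, 51.9 and 25.8 CPM in BPA40 fish at F1 140 dpf, against 9.78, 14.9, 7.05 and 12.7 CPM in Control fish. The groups did not overlap there (log2 fold change 1.82, SE 0.50, edgeR adjusted p = 0.378). The share of all genes without overlap at F1 140 dpf was not counted. BPA4 fish of F1 140 dpf had 1.37 to 10.9 CPM, with a log2 fold change of BPA4 over Control of -1.36 (SE 0.51, edgeR adjusted p = 0.72). In the F2 fish the BPA40 and Control groups overlapped, with log2 fold changes of 0.39 (SE 0.33, edgeR adjusted p = 0.862) at 112 dpf and 0.34 (SE 0.58, edgeR adjusted p = 0.849) at 365 dpf. For GSONMT00016350001 the groups overlapped at each of the other time points, with log2 fold changes of 0.56 (SE 0.82, edgeR adjusted p = 0.946) at F1 140 dpf, -0.62 (SE 0.60, edgeR adjusted p = 0.881) at F2 112 dpf and 0.79 (SE 0.57, edgeR adjusted p = 0.593) at F2 365 dpf. For GSONMT00022276001 they were -0.46 (SE 0.59, edgeR adjusted p = 0.936), 2.83 (SE 0.71, edgeR adjusted p = 0.753) and -0.54 (SE 0.35, edgeR adjusted p = 0.556), with overlapping groups each time. The level of this gene was low at F2 112 dpf, from 1.10 to 17.8 CPM in BPA40 fish and from 0.266 to 1.37 CPM in Control fish. The difference of F1 365 dpf from F1 140 dpf and from F2 365 dpf was tested for each of the 4 genes as an interaction. None passed the adjustment (edgeR adjusted p from 0.854 to 0.965 against F1 140 dpf, and from 0.31 to 0.684 against F2 365 dpf). The difference from F2 112 dpf was not tested. At that time point the fold change of GSONMT00022276001 had the opposite sign to that at F1 365 dpf (BPA40 against Control at F2 112 dpf, edgeR unadjusted p = 0.00124).

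The 980 higher and 861 lower genes were followed in the same way, as counts and medians with no test. Counts and medians cover the members that passed the filter on low counts at the time point, which a gene can pass through 1 group alone, and are a description of these fish. At F1 140 dpf, 908 of the 980 higher genes were tested. Their median log2 fold change was 0.19, and 71% were above 0, against 0.03 and 53.2% for all 21078 genes tested. Of the 908 genes, 101 (11.1%) were higher in BPA40 at unadjusted p under 0.05, where 4.29% of all genes were, and 16 (1.76%) were lower, where 2.92% of all genes were. The 661 tested genes of the 861 lower ones had a median of 0.0012, and 49.9% were below 0, against 46.8% of all genes. Of the 661 genes, 26 (3.93%) were lower and 34 (5.14%) were higher at unadjusted p under 0.05. The genes higher at F1 365 dpf thus leaned to the same side at F1 140 dpf, in fish of the same rearing experiment. The lower genes leaned to neither side. With 1 fish left out, the median of the lower genes lay between -0.09 (without BPA40 replicate 1 of F1 140 dpf) and 0.05 (without BPA40 replicate 2 of F1 365 dpf), on either side of 0.

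At F2 112 dpf both lists leaned to the opposite side. The higher genes had a median of -0.11, with 40.1% of 791 above 0, against 0.02 and 51.4% for all 16315 genes tested. The lower genes had a median of 0.24, with 31.9% of 436 below 0, against 48.6% of all genes. Of the 436 lower genes, 50 (11.5%) were higher in BPA40 there at unadjusted p under 0.05, where 3.30% of all genes were, and 2 (0.459%) were lower, where 2.67% of all genes were. Of the 791 higher genes, 12 (1.52%) were higher and 25 (3.16%) were lower. The medians kept their signs with 1 fish left out, but their size depended on single fish. Leaving out a fish of F1 365 dpf also changed the genes in the lists. For the lower genes, leaving out BPA40 replicate 1 or 2 of F1 365 dpf gave 0.16 or 0.13. Leaving out Control replicate 0 or 2 of F1 365 dpf gave 0.11 or 0.38. Without BPA40 replicate 0 or Control replicate 1 of F2 112 dpf, which kept the list, the median was 0.16 or 0.33. For the higher genes the median was -0.06 without BPA40 replicate 3 and -0.05 without Control replicate 1 of F1 365 dpf. It was -0.07 without Control replicate 1 of F2 112 dpf.

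At F2 365 dpf, the age of the F1 fish here, the higher genes had a median of 0.11, with 60.5% of 967 above 0, against -0.02 and 48.3% for all 26296 genes tested. Of the 967 genes, 92 (9.51%) were higher at unadjusted p under 0.05, where 6.09% of all genes were, and 36 (3.72%) were lower, where 5.91% of all genes were. The 850 tested lower genes had a median of 0.0099, with 75 (8.82%) higher and 47 (5.53%) lower. At F2 365 dpf, 105 of all genes tested (0.399%) passed the edgeR adjustment. They included 2 of the higher genes (0.207%), 1 of them higher and 1 lower in BPA40 there, and 3 of the lower genes (0.353%), all of them higher in BPA40 there. Leaving out 1 fish moved the median of the higher genes to between 0.05 (without BPA40 replicate 3 of F1 365 dpf) and 0.17 (without Control replicate 0 of F2 365 dpf), and that of the lower genes to between -0.10 (without Control replicate 0 of F2 365 dpf) and 0.16 (without BPA40 replicate 3 of F1 365 dpf). Genes of a list are not independent, as they come from the same fish. F2 fish were reared in 1 tank per treatment, so that tank and treatment cannot be told apart there.

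**Figure D4:**
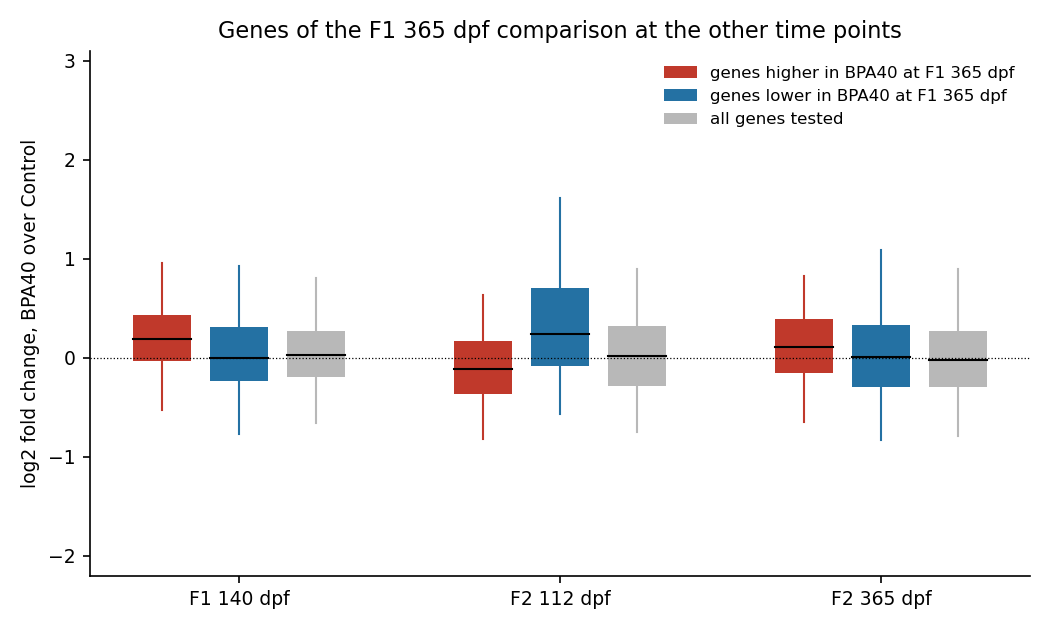
Log2 fold change of BPA40 over Control (vertical axis) at the 3 other time points (horizontal axis) for the genes that were higher or lower in BPA40 at F1 365 dpf at unadjusted p under 0.05, and for all genes tested. Boxes span the middle 50% of genes with the median as a line, and vertical lines the middle 90%. The higher genes have a median of 0.19 at F1 140 dpf and of -0.11 at F2 112 dpf.

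The 30 genes called by DESeq2 at F1 365 dpf, which ranged in mean level from 1.63 to 298 CPM, were all tested at F1 140 dpf. Of the 21 higher genes, with a median log2 fold change of 1.11 at F1 365 dpf, 17 were above 0 at F1 140 dpf (median 0.45), and 6 were higher at unadjusted p under 0.05 in edgeR, where 53.2% of all genes tested were above 0 and 4.29% were higher at that p. Of the 9 lower genes, with a median of -1.61, 4 were below 0 at F1 140 dpf (median 0.0012), and 3 were lower at unadjusted p under 0.05, where 46.8% of all genes were below 0 and 2.92% were lower at that p. Of the 30 genes, 1 was at unadjusted p under 0.05 with the opposite sign. Among the 9 lower genes was the gene with the largest fold change of the 100 smallest edgeR p-values, singled out after its values were seen. It had 4.72, 0.641, 0.106 and 0.244 CPM in BPA40 fish, against 564, 121, 13.6 and 133 CPM in Control fish. The groups did not overlap, but the Control fish differed widely among themselves (log2 fold change -7.14, SE 1.94, edgeR adjusted p = 0.652).

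Whether the BPA40 difference itself depended on life stage or generation was tested as an interaction, with 24 fish in each fit. F2 fish were reared in 1 tank per treatment, so that tank and treatment cannot be told apart at F2 365 dpf. The p-values against F2 365 dpf measure the spread between fish, and a tank difference was not tested. For F1 365 dpf against F1 140 dpf, 0 of 24817 genes (0%) differed at an adjusted p under 0.05 (edgeR, smallest adjusted p = 0.459), and 1500 genes (6.04%) did at an unadjusted p under 0.05. DESeq2 called 11 genes in this contrast. For F1 365 dpf against F2 365 dpf, edgeR called 14 of 27073 genes (0.0517%), with 2472 (9.13%) at unadjusted p under 0.05. The log2 fold change of BPA40 over Control was smaller at F1 365 dpf than at F2 365 dpf in 9 of the 14 genes and larger in 5. Without TMM it was smaller in 18 and larger in 3 of 21 genes, with DESeq2 smaller in 128 and larger in 34 of 162, and without BPA40 replicate 3 smaller in 324 and larger in 24 of 348. Of the 14 genes called by edgeR, 13 were tested at both time points, and their fold changes had opposite signs. The genes were chosen by the difference of these same fold changes, which favours opposite signs. The smaller ones lay between -2.10 and -0.16 at F1 365 dpf, against 1.43 to 3.96 at F2 365 dpf, and the larger ones between 0.25 and 1.44 at F1 365 dpf, against -3.06 to -0.80 at F2 365 dpf. Of these 13 genes, 8 were at unadjusted p under 0.05 at F1 365 dpf, where 7.59% of all genes tested were. The groups did not overlap there in 3, against 4.28% of all genes tested. Of the 14 genes, 10 were called at F2 365 dpf, where 105 of 26296 genes (0.399%) were. These counts come from the same values that chose the genes. The gene with the smallest p had 1.399 CPM in BPA40 and 4.00 CPM in Control on average at F1 365 dpf, and 10.1 CPM in BPA40 and 1.502 CPM in Control at F2 365 dpf (difference of the log2 fold changes -4.31, SE 0.58, edgeR adjusted p = 0.00356). The adjusted p-values of the 14 genes reached up to 0.049, close to the threshold. The count changed when 1 fish of F1 365 dpf was left out, and the part of the smaller group in this was not tested. The count was 348 without BPA40 replicate 3 of F1 365 dpf, which included all 14 genes. It was 10 without Control replicate 1, and 2 to 5 without any 1 of the other 6 BPA40 and Control fish of F1 365 dpf. Fish of F2 365 dpf were not left out.

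**Figure D5:**
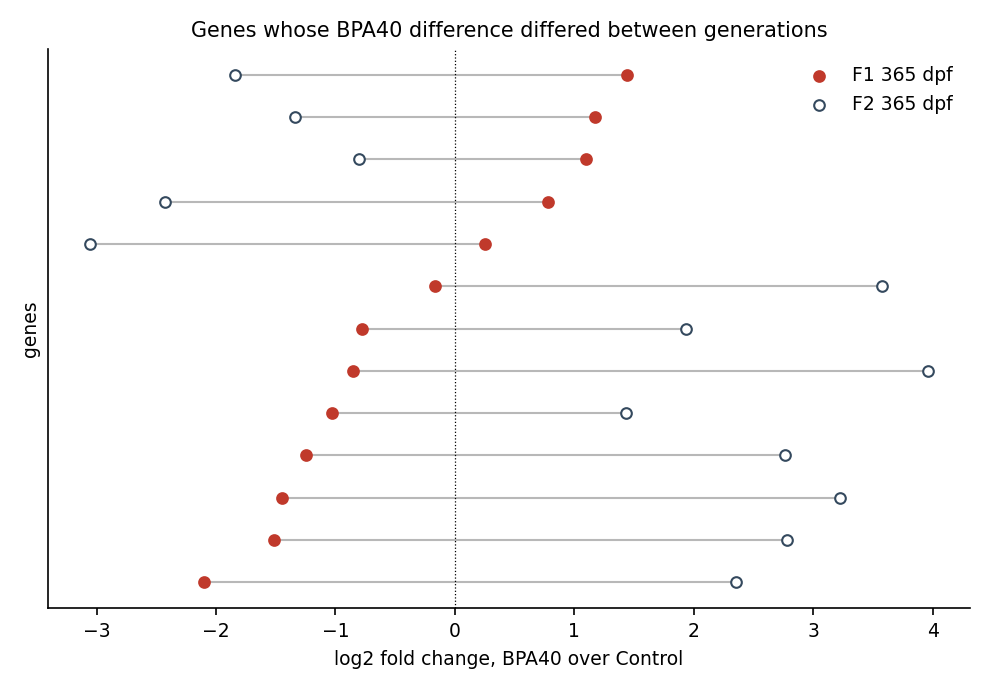
Log2 fold change of BPA40 over Control (horizontal axis) at F1 365 dpf (filled) and F2 365 dpf (open) for the 13 genes tested at both time points whose BPA40 difference differed between the generations at an edgeR adjusted p under 0.05. Each row is a gene, sorted by its fold change at F1 365 dpf, and the 2 values have opposite signs in all 13. The genes were chosen by the difference of these values, which favours opposite signs. Tank and treatment cannot be told apart in the F2 fish.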

How the data were processed

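Liver mRNA (stranded TruSeq libraries) was sequenced from 48 fish. Per the labels and the paper's methods, the authors mapped reads with TopHat2 2.1.0 and Bowtie2 2.2.6 and quantified genes with Cufflinks. The deposited tables list raw fragment counts without normalization for 46585 genes (whole numbers in 100% of entries). They also list FPKM that the authors' software scaled jointly for each time point. In the tables, 8 columns of scaled fragments were not used. Fragments per fish ranged from 6664769 to 19085721 over the series after HIDATA genes were dropped. Counts were tested with edgeR 4.0.16 in R 4.3.3 (glmQLFit with default settings, glmQLFTest, TMM, filterByExpr), with Benjamini-Hochberg adjustment over all genes tested and a threshold of 0.05. The genes tested held 99.8% of the fragments, and the biological coefficient of variation was 34.8%. The study's own software needs alignments, which were not used here. DESeq2 1.42.0, limma 3.58.1 (log2(FPKM + 1)), other scaling and filters, the replicate number as a block and leaving out fish were alternatives. Scripts were tested on simulated data. Figures used matplotlib 3.10.9. Within each group the 4 fish were distinct libraries, as chi-square per degree of freedom between fish of a group was 25.4 or more over 12 pairs. Pairs of a BPA40 and a Control fish were not checked in this way. Named genes were the 2 higher and the 2 lower in BPA40 with the smallest p. The comparison and lists were chosen with earlier results of these data known. Gene lists and cell type markers needed gene names and were not used.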

Additional observations from a re-analysis of the deposited data

Results flagged for a closer look

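GSONMT00022276001 had 1 outlying Control fish at F1 365 dpf. Replicate 2 had 80.4 CPM, against 68.6, 69.7 and 70.2 CPM in the other Control fish, and its gap to the nearest fish was 0.869 of the range of the group, above the critical value of 0.829 for 4 samples. Chance gives this in about 1 of 20 groups, and 18 groups were checked. The outlying fish lay farther from the BPA40 fish than the other Control fish did.

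The BPA40 difference at F1 365 dpf differed from that at F2 365 dpf in 14 genes in the edgeR test of the difference itself. The count was between 2 and 348 when fish of F1 365 dpf were left out. BPA40 replicate 3 stood apart from its group on the first axis of the deviations, and its part was not tested beyond this.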

How the results depend on the processing

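The count of 0 genes called in BPA40 at F1 365 dpf was 30 with DESeq2 and 1 with limma-trend on log2(FPKM + 1), and 0 in the 20 other fits, which include the leaving out of each of the 12 fish (0 to 0). DESeq2 left 4254 adjusted p-values undefined. The count at unadjusted p under 0.05 ranged from 1179 to 2645 when 1 fish was left out and was 2820 without 3 fish, an alternative added after seeing the data. With 40017 genes and no filter on low counts it was 2336. The log2 fold changes of the named genes passed the threshold under DESeq2, at 2.43 for GSONMT00039044001, 2.39 for GSONMT00016350001, -2.82 for GSONMT00042395001 and -1.17 for GSONMT00022276001. That of GSONMT00042395001 also passed under limma-trend, at -0.73 on the log2(FPKM + 1) scale, which understates the change of low genes. With 1 fish left out they ranged from 2.141 to 2.678, from 2.11 to 2.72, from -3.29 to -2.52 and from -1.45 to -1.04, in the same order, and none passed. The interaction with F1 140 dpf gave 11 genes with DESeq2 and 0 to 1 with 1 BPA40 or Control fish of F1 365 dpf left out. That with F2 365 dpf gave 162 genes with DESeq2 and 58 with the replicate block (55 with a smaller and 3 with a larger fold change at F1 365 dpf). It gave 2 to 348 with 1 BPA40 or Control fish of F1 365 dpf left out. Fish of F1 140 dpf and F2 365 dpf were not left out in these fits. Without TMM, the median of all genes shifted to 0.12 (F1 140 dpf), -0.17 (F2 112 dpf) and 0.15 (F2 365 dpf), and that of the genes higher at F1 365 dpf to 0.26, -0.30 and 0.29, so that they kept their side of the median of all genes. The medians of these genes with 1 fish left out ranged from 0.13 to 0.22, from -0.16 to -0.05 and from 0.05 to 0.17, in the same order. Genes without overlap numbered 818 to 1041 over 3 alternatives.

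The labels do not say what the replicate number stands for. Deviations of BPA40 and Control fish with the same number correlated at 0.03, 0.21, 0.08 and 0.17. Of the 4 BPA40 fish, 2 correlated best with the Control fish of their own number. Whether fish of the same number share a tank or a batch was not tested. With the replicate number as a block, 0 genes were called at F1 365 dpf and 2049 were at unadjusted p under 0.05, and 0 were called in the interaction with F1 140 dpf. Genes with few fragments had the widest intervals, and the parts of depth and of the spread between fish in this were not separated.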
